A study of Mus musculus with 17 samples.

Results

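The 9 genes described here encode transcription factors and co-regulators that mark the layers of the developing neocortex, namely *Cux1*, *Cux2*, *Rorb*, *Bcl11b*, *Fezf2*, *Tbr1*, *Foxp2*, *Tle4* and *Sox5*. They were taken by symbol, with no threshold on their values, and all 9 of 9 were found among the 55359 genes of the deposited table and passed the filter on low counts that left 16076 genes to be tested in forebrain. The study asked how osteocalcin, a hormone made by bone-forming cells, acts on the offspring when it comes from the mother or from the embryo. Forebrain was taken at postnatal day 1 from 3 WT, 3 *Ocn*+/- and 3 *Ocn*-/- male pups of the *Ocn* GK strain, a gene-targeted line kept on a 129/SvEv background. The mothers of WT pups were WT, while every mutant pup, heterozygous or homozygous, had an *Ocn*-/- mother, so that in the comparisons with WT the genotype of the pup, that of its mother and the litter cannot be told apart, whereas *Ocn*-/- and *Ocn*+/- pups shared the maternal genotype. Nothing in the labels says whether libraries of a genotype came from separate litters, and p-values measure the spread between these libraries.

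Neurons of the neocortex are born in sequence, and those of the deep layers come before those of the upper layers. FEZF2 and BCL11B (also called CTIP2) specify layer 5 neurons that project below the cortex, whereas TBR1, SOX5, TLE4 and FOXP2 are found in the corticothalamic neurons of layer 6 and in the subplate. RORB marks layer 4 and CUX1 and CUX2 mark the upper layers. Several of these genes are also used outside the cortex, *Bcl11b* and *Foxp2* strongly in projection neurons of the striatum, so that a level in bulk forebrain RNA sums over regions. In such RNA fewer cells of a type and less RNA per cell cannot be told apart.

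The labels call the brain tissue hippocampus, and the study's text calls it forebrain and counts the hippocampus within it. Genes of several regions were present. *Prox1*, a gene of the dentate gyrus, lay between 31.9 and 44.7 CPM (counts scaled to a common library size, by TMM) and *Ppp1r1b*, a gene of striatal projection neurons, between 34.3 and 76.0 CPM. Of the 10 hippocampal genes 9 had enough counts to be tested, among them *Wfs1* at 21.2 to 36.1 and *Zbtb20* at 133 to 282 CPM, and *Spink8* did not, at 0 to 0.534 CPM. Of a list of 12 genes of cerebellum, midbrain and hindbrain, 1 had enough counts to be tested, and the summed list stayed between 0.240 and 11.2 CPM. The tissue is called forebrain below. The deletion itself could not be checked in forebrain, where *Bglap* had 0 to 5 counts per library, *Bglap2* 0 in each and *Bglap3* 0 to 3.

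Libraries held 6518151 to 14621584 counts, with a median of 12920133. WT 3 stood apart. It was the shallowest library, 8.50% of its counts fell on the ribosomal RNA gene *Rn18s-rs5* (0.261 to 0.805% in the others) and 5.34% on mitochondrial genes (2.40 to 3.18% in the others). Its TMM factor was 0.866, against 0.991 to 1.04 in the others. A further share separated all WT libraries from the mutant ones, that of the TEC class of GENCODE, transcribed regions without a settled gene model, with 0.103 to 0.129% of the counts in WT and 0.0804 to 0.0933% in the mutants. Its part in the comparisons with WT was not tested. Many values below are therefore also given without WT 3. The clustering of forebrains shown in the study used fewer WT mice than the labels list, and which library was left out of it is not stated.

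Among themselves the genes differed more in level than they did between genotypes. Per kilobase of the canonical transcript, *Tbr1* had the highest mean level over the 9 forebrain libraries, 49.0 CPM per kb ± 7.86 (SD, n = 9), followed by *Bcl11b* with 39.3 ± 5.99, *Tle4* with 27.4 ± 2.11, *Fezf2* with 19.4 ± 2.88, *Cux1* with 13.2 ± 1.38, *Sox5* with 12.4 ± 1.63, *Foxp2* with 10.6 ± 1.71, *Cux2* with 8.15 ± 0.897 and *Rorb* with 3.93 ± 0.609 CPM per kb. The ranges of *Tbr1* and *Bcl11b* overlapped, as did those of each neighbouring pair from *Fezf2* down to *Cux2*. *Tle4* lay below every value of *Bcl11b* and above every value of *Fezf2*, and *Rorb* lay below every value of *Cux2*. With the length of all annotated exons in place of the canonical transcript, *Cux1* moved from rank 5 to rank 7, *Foxp2* from 7 to 8 and *Cux2* from 8 to 5, so that the order in the middle depends on which transcripts are made. The deep-layer genes *Tbr1* and *Bcl11b* were thus the most abundant per length and the layer 4 gene *Rorb* the least, with 208 to 618 counts per library behind its values and 2487 to 4770 behind those of *Bcl11b*.

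**Figure D1:**
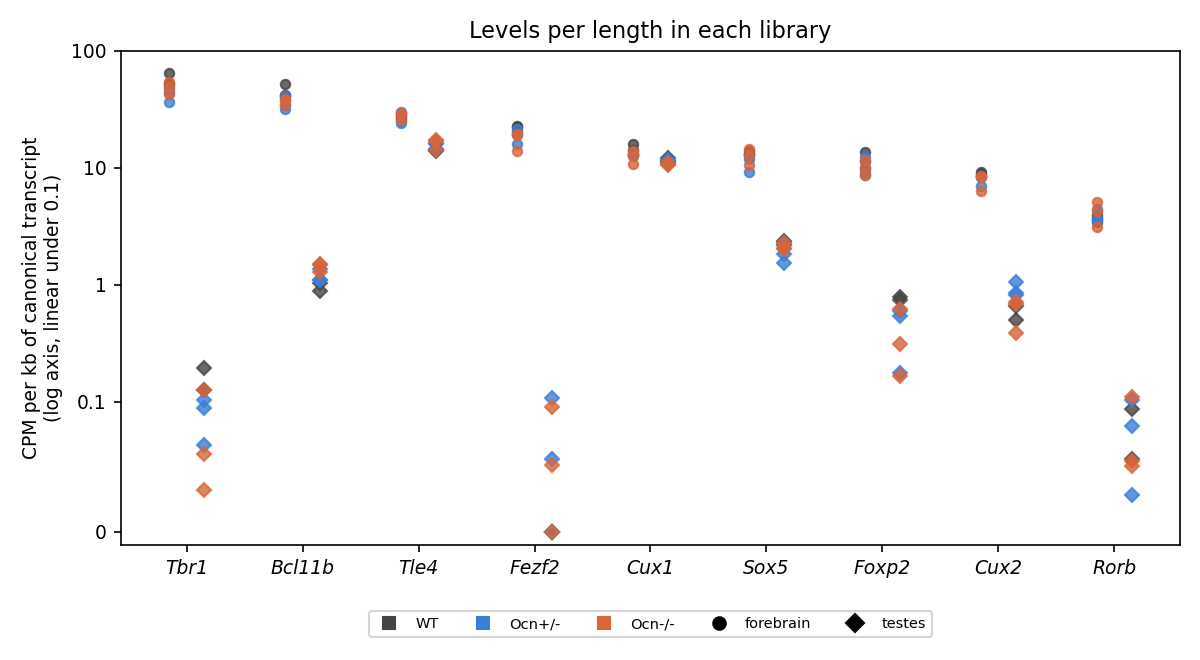
Level of each gene in CPM per kb of canonical transcript (log axis, linear under 0.1), with circles for the 9 forebrain libraries and diamonds for the 8 testes libraries, coloured by genotype. *Tbr1* is highest in forebrain and *Rorb* lowest, and in testes *Cux1* and *Tle4* have medians of 11.1 and 15.2 CPM per kb while *Tbr1*, *Fezf2* and *Rorb* lie near 0.

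Across genotypes few changes of the 9 genes passed the test. In both mutant genotypes together against WT, 1 of the 9 genes passed the test, *Bcl11b*, which was lower, against 8.68% of all genes tested that were called in this comparison (5.39% lower and 3.29% higher). In *Ocn*+/- against WT 0 of the 9 passed, against 3.89% of all genes, and in *Ocn*-/- against WT 0 of the 9 passed, against 4.85%. In *Ocn*-/- against *Ocn*+/-, the pair that shares the maternal genotype, 0 of the 9 passed and 0.00622% of all genes did. Tests were edgeR's quasi-likelihood test with Benjamini-Hochberg adjustment over all 16076 genes, called at an adjusted p under 0.05. By DESeq2 the counts of the 9 genes were 2, 1, 0 and 0 in the same order, against 10.6%, 6.27%, 8.05% and 0.0311% of the genes given an adjusted p. At an unadjusted p under 0.05, 3 genes were lower in both mutant genotypes (*Bcl11b*, *Tbr1* and *Fezf2*; 13.5% of all genes), 2 in *Ocn*+/- (*Bcl11b* and *Tbr1*; 11%), 2 in *Ocn*-/- (*Bcl11b* and *Fezf2*; 11.3%) and 0 in *Ocn*-/- against *Ocn*+/- (1.67%), and none of the 9 was higher at that p. Without WT 3 these counts were 0 in both (9.46% of all genes), 1 in *Ocn*+/- (*Tbr1*; 7.88%), 0 in *Ocn*-/- (8.19%) and 0 in *Ocn*-/- against *Ocn*+/- (2.04%).

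Without WT 3, 0 of the 9 genes passed in each of the 4 comparisons, whereas 1.95% of all genes were called in both mutant genotypes, 1.11% in *Ocn*+/-, 1.15% in *Ocn*-/- and 0.00609% in *Ocn*-/- against *Ocn*+/-. The estimates, which share the WT libraries and so are not independent, were nonetheless mostly below WT. In both mutant genotypes together 8 of the 9 had a negative log2 fold change, with a median of -0.17 against 0.01 over all genes tested, and 7 of the 9 did without WT 3, where the median was also -0.17. The median moved more in each genotype alone, from -0.19 to -0.14 without WT 3 in *Ocn*+/- and from -0.20 to -0.10 in *Ocn*-/-. *Tle4* is the gene whose sign turned, and it also turned when counts were scaled by library size alone. The 95% intervals bound how far any of these genes may have moved. Over the 9 genes they spanned folds of 0.648 to 1.33 for *Ocn*+/-, 0.665 to 1.41 for *Ocn*-/- and 0.707 to 1.33 for the mutants combined. Without WT 3 they spanned 0.677 to 1.44, 0.655 to 1.53 and 0.700 to 1.45.

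**Figure D2:**
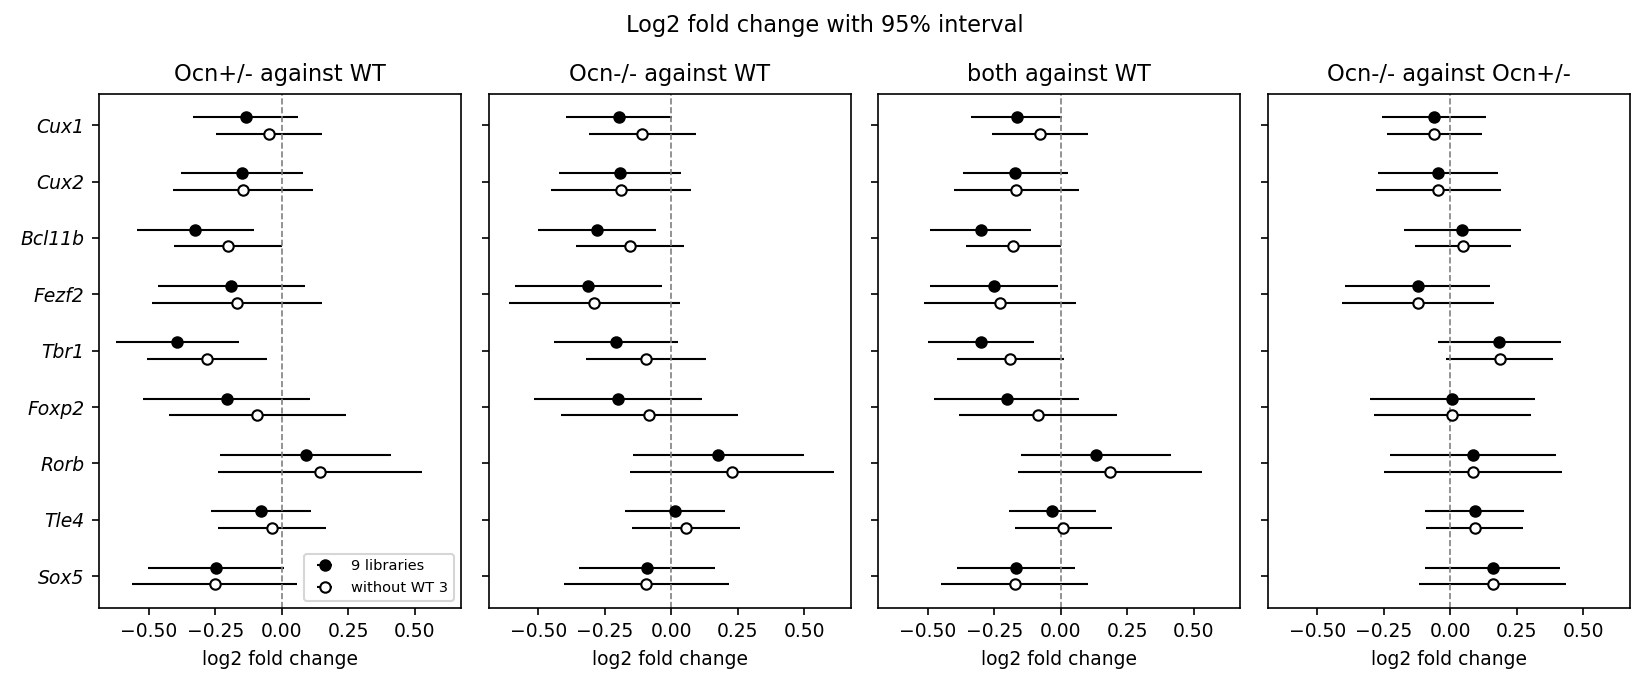
Log2 fold change of each gene with its 95% interval in the 4 comparisons, filled with all 9 libraries and open without WT 3. In both mutant genotypes against WT, *Bcl11b* is at -0.30 with all libraries and at -0.18 without WT 3, and in *Ocn*-/- against *Ocn*+/- every interval includes 0.

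Of the factors of layer 5, *Bcl11b* (ENSMUSG00000048251.16, chromosome 12, 107876656 to 107970417 on the minus strand of GRCm39) encodes a zinc finger repressor that directs subcerebral axon growth. Its level was 345, 354 and 442 CPM in the WT libraries, 270, 350 and 290 CPM in *Ocn*+/- and 328, 320 and 292 CPM in *Ocn*-/-. All 3 *Ocn*-/- libraries lay below the lowest WT library while *Ocn*+/- 2 lay within the WT range, and WT 3 was the highest of the 9. Over both mutant genotypes *Bcl11b* was lower by a log2 fold change of -0.30 (SE 0.09, 95% interval -0.49 to -0.11, fold 0.811, adjusted p = 0.0470). It was -0.32 (adjusted p = 0.0907, 0.0392 without *Ocn*+/- 2) in *Ocn*+/- and -0.28 (adjusted p = 0.131) in *Ocn*-/-. Without WT 3 these were -0.20 (adjusted p = 0.343) and -0.16 (adjusted p = 0.466). Without WT 3 the combined estimate was -0.18 (95% interval -0.36 to 0.00, adjusted p = 0.295). The call was also lost without WT 2 (adjusted p = 0.0671), *Ocn*+/- 1 (0.0783), *Ocn*+/- 3 (0.0851), *Ocn*-/- 1 (0.0528), *Ocn*-/- 2 (0.0748) and *Ocn*-/- 3 (0.0711), where the estimate stayed between -0.35 and -0.26, and held without WT 1 (0.0393) and *Ocn*+/- 2 (0.0157). It was lost with library size alone (log2 fold change -0.20, adjusted p = 0.129).

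*Fezf2* (ENSMUSG00000021743.7, chromosome 14, 10121574 to 10127680 on the plus strand), the zinc finger gene required for corticospinal neurons, was at 49.7, 56.1 and 55.2 CPM in WT, 39.8, 47.7 and 53.3 CPM in *Ocn*+/- and 48.4, 34.3 and 46.8 CPM in *Ocn*-/-. The *Ocn*-/- libraries all lay below WT, the nearest at 48.4 against 49.7 CPM, and *Ocn*-/- 2 was the lowest of all. The log2 fold change was -0.19 (adjusted p = 0.441) in *Ocn*+/-, -0.31 (adjusted p = 0.176) in *Ocn*-/- and -0.25 (95% interval -0.49 to -0.01, adjusted p = 0.176) in both. Without WT 3 it was -0.17 (adjusted p = 0.654), -0.29 (adjusted p = 0.377) and -0.23 (adjusted p = 0.407). The *Ocn*-/- estimate rested in part on *Ocn*-/- 2, without which it was -0.17, and the *Ocn*+/- estimate was -0.08 without *Ocn*+/- 1.

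Of the factors of layer 6 and subplate, *Tbr1* (ENSMUSG00000035033.16, chromosome 2, 61633274 to 61644458 on the plus strand), a T-box factor that represses the subcerebral program in corticothalamic neurons, was at 202, 211 and 256 CPM in WT, 146, 187 and 175 CPM in *Ocn*+/- and 214, 169 and 195 CPM in *Ocn*-/-. The *Ocn*+/- libraries all lay below WT, whereas *Ocn*-/- 1 lay within the WT range. Its log2 fold change was -0.39 (SE 0.11, 95% interval -0.62 to -0.16, adjusted p = 0.0571) in *Ocn*+/-, -0.21 (adjusted p = 0.285) in *Ocn*-/- and -0.30 (95% interval -0.50 to -0.10, adjusted p = 0.0586) in both. These values lay next to the threshold, and 8 of the 18 alternatives and leave-outs called *Tbr1* in *Ocn*+/-, among them DESeq2 (adjusted p = 0.0187), the 2 genotypes fitted alone (0.0296) and leaving out WT 1 (0.0491), *Ocn*-/- 1 (0.0434) or *Ocn*-/- 2 (0.0415). Without *Ocn*+/- 2 or *Ocn*-/- 1 it was called in both genotypes together (adjusted p = 0.0455 and 0.0338). Without WT 3 the estimates were -0.28 (adjusted p = 0.233) in *Ocn*+/-, -0.10 (adjusted p = 0.719) in *Ocn*-/- and -0.19 (adjusted p = 0.321) in both. Without *Ocn*-/- 2 the *Ocn*-/- estimate was -0.12 (adjusted p = 0.615).

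*Sox5* (ENSMUSG00000041540.17, chromosome 6, 143774151 to 144727703 on the minus strand), which controls when deep-layer neurons are made, was at 111, 104 and 106 CPM in WT, 95.8, 101 and 73.7 CPM in *Ocn*+/- and 115, 83.8 and 103 CPM in *Ocn*-/-. The *Ocn*+/- libraries lay below WT, with *Ocn*+/- 3 far below, and the *Ocn*-/- libraries spanned the WT range on both sides. The log2 fold change was -0.25 (adjusted p = 0.260) in *Ocn*+/- and -0.09 (adjusted p = 0.714) in *Ocn*-/-, the latter turning sign with library size alone and without *Ocn*-/- 2. Without WT 3 the estimates were -0.25 (adjusted p = 0.451) and -0.09 (adjusted p = 0.806), and without *Ocn*+/- 3 that of *Ocn*+/- was -0.12 (adjusted p = 0.632).

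*Tle4* (ENSMUSG00000024642.18, chromosome 19, 14425417 to 14575572 on the minus strand), a Groucho co-repressor of layer 6 neurons, varied least, with a coefficient of variation of 7.69% over the 9 libraries. It was at 127, 133 and 141 CPM in WT, 121, 143 and 116 CPM in *Ocn*+/- and 142, 124 and 138 CPM in *Ocn*-/-, and all groups overlapped. The log2 fold change in both was -0.03 (95% interval -0.20 to 0.13), which bounds the fold between 0.873 and 1.10, and its sign turned without WT 3 and with library size alone.

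*Foxp2* (ENSMUSG00000029563.17, chromosome 6, 14901287 to 15441976 on the plus strand), a forkhead factor of layer 6 and of the striatum, was at 77.8, 68.2 and 92.3 CPM in WT, 62.6, 83.8 and 59.3 CPM in *Ocn*+/- and 58.9, 79.4 and 68.1 CPM in *Ocn*-/-. All groups overlapped. Its log2 fold change in both was -0.20 (95% interval -0.48 to 0.07, adjusted p = 0.341), and -0.09 (adjusted p = 0.799) without WT 3. By genotype it was -0.21 in *Ocn*+/- and -0.20 in *Ocn*-/-, and leaving out single libraries gave -0.37 to -0.09 and -0.31 to -0.08.

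Of the factors of layer 4 and the upper layers, *Rorb* (ENSMUSG00000036192.16, chromosome 19, 18907969 to 19088585 on the minus strand), an orphan nuclear receptor of thalamus-recipient neurons, was the gene with positive estimates against WT in every comparison. It was at 31.8, 34.6 and 37.0 CPM in WT, 41.8, 34.3 and 33.3 CPM in *Ocn*+/- and 47.6, 29.1 and 39.7 CPM in *Ocn*-/-. The groups overlapped, and the *Ocn*-/- group held both the highest and the lowest of the 9 libraries. The log2 fold change was 0.09 (adjusted p = 0.787) in *Ocn*+/-, 0.18 (adjusted p = 0.533) in *Ocn*-/- and 0.13 (95% interval -0.15 to 0.42, adjusted p = 0.576) in both. Without WT 3 these were 0.14 (adjusted p = 0.764), 0.23 (adjusted p = 0.588) and 0.19 (adjusted p = 0.594). Without *Ocn*+/- 1 the *Ocn*+/- estimate turned to -0.02. That of *Ocn*-/- was 0.01 without *Ocn*-/- 1 and 0.35 without *Ocn*-/- 2. Leaving out WT 1, *Ocn*+/- 1, *Ocn*-/- 1 or *Ocn*-/- 2 gave 0.07, 0.08, 0.05 and 0.22 in both.

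*Cux1* (ENSMUSG00000029705.18, chromosome 5, 136276755 to 136596408 on the minus strand), a homeodomain factor of upper-layer dendrite and spine growth, was at 144, 159 and 180 CPM in WT, 148, 144 and 147 CPM in *Ocn*+/- and 143, 122 and 156 CPM in *Ocn*-/-. Its WT and mutant libraries overlapped, and WT 3 was the highest. Its log2 fold change in both was -0.17 (95% interval -0.34 to 0.01, adjusted p = 0.212) and -0.08 (adjusted p = 0.689) without WT 3. By genotype it was -0.14 in *Ocn*+/- and -0.20 in *Ocn*-/-, and leaving out single libraries gave -0.21 to -0.05 and -0.28 to -0.10.

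*Cux2* (ENSMUSG00000042589.19, chromosome 5, 121994429 to 122188521 on the minus strand), its paralog in the same neurons, was at 78.8, 84.9 and 81.8 CPM in WT, 77.5, 65.2 and 78.6 CPM in *Ocn*+/- and 78.3, 58.7 and 77.8 CPM in *Ocn*-/-. All 6 mutant libraries lay below all 3 WT libraries, though the nearest of each, *Ocn*+/- 3 at 78.56 and WT 1 at 78.77 CPM, were almost level. The log2 fold change in both was -0.17 (95% interval -0.37 to 0.03, adjusted p = 0.269), and -0.17 (adjusted p = 0.467) without WT 3. It was -0.11 without *Ocn*-/- 2, where the *Ocn*-/- estimate went from -0.19 to -0.07, and the *Ocn*+/- estimate went from -0.15 to -0.07 without *Ocn*+/- 2.

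**Figure D3:**
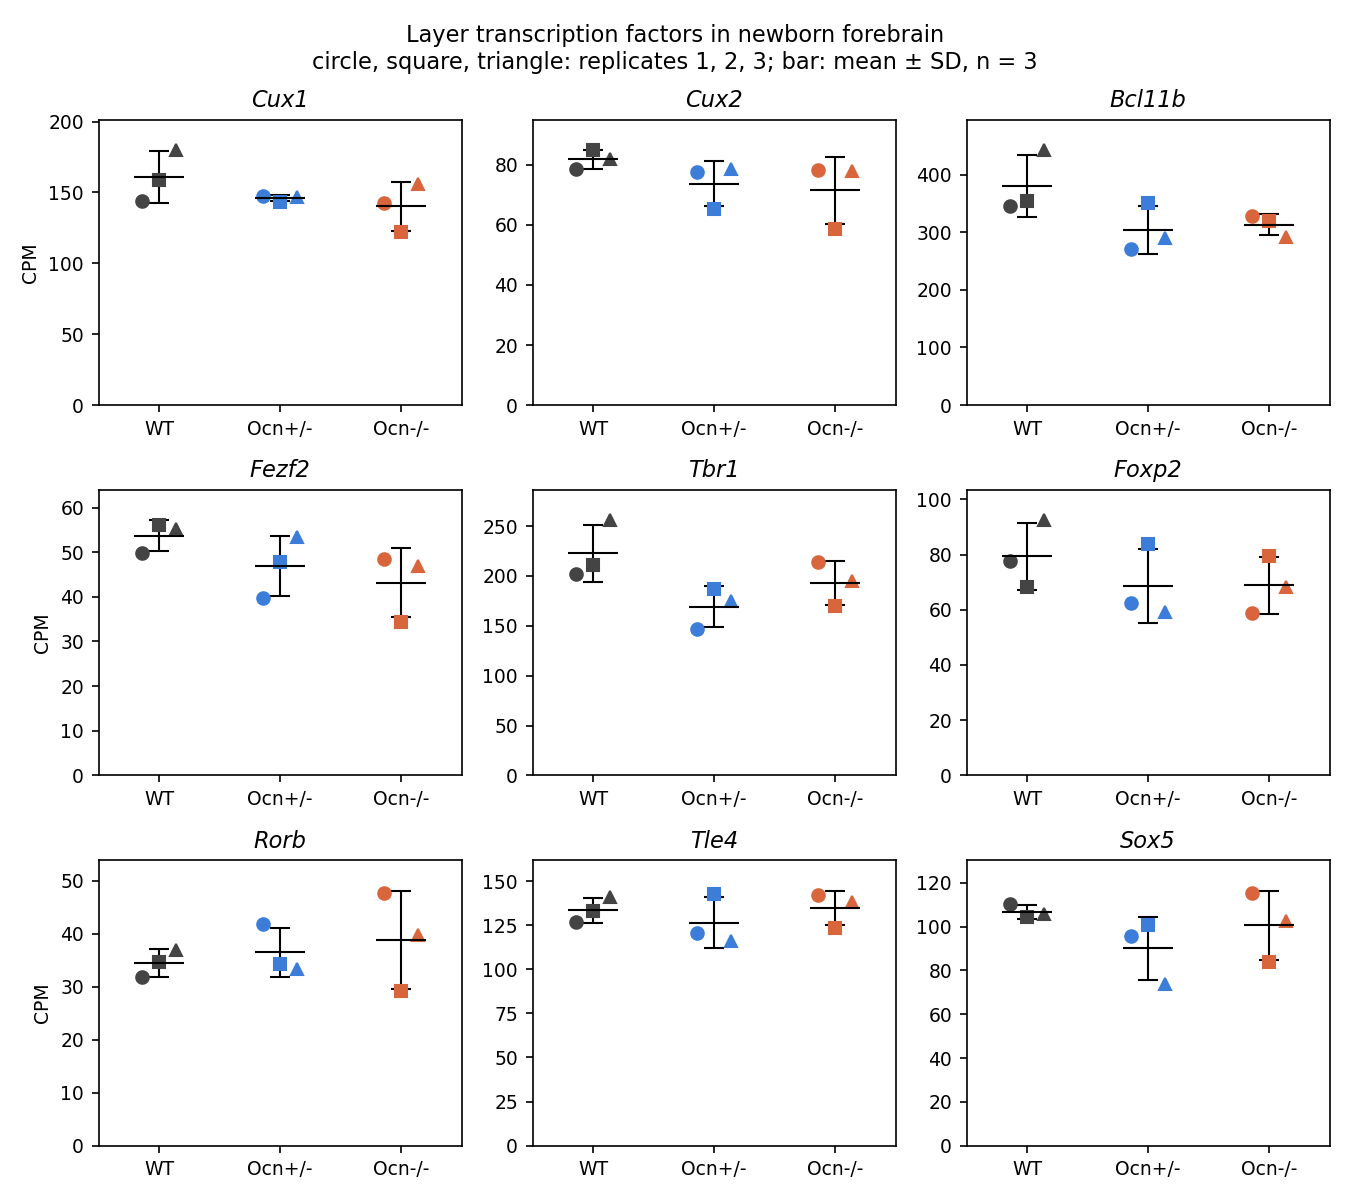
CPM of each gene in the 9 forebrain libraries, by genotype, with the replicates as circle, square and triangle and bars for the mean ± SD of 3 libraries. *Bcl11b* and *Tbr1* are highest in WT 3 (442 and 256 CPM) and *Rorb* reaches both its highest and its lowest level among the *Ocn*-/- libraries (47.6 and 29.1 CPM).

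Counted by libraries that did not overlap, *Cux2*, *Tbr1* and *Sox5* were lower in *Ocn*+/- than in WT, 3 of the 9 against 13.9% of all genes tested, and *Cux2*, *Bcl11b* and *Fezf2* were lower in *Ocn*-/- than in WT, again 3 of the 9 against 13.9%. Against both mutant genotypes together this held for *Cux2* alone, against 8.57% of all genes, and in *Ocn*-/- against *Ocn*+/- for 0 of the 9, against 4.12%. No gene of the 9 was higher without overlap in any comparison. These counts share the WT libraries.

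Between *Ocn*-/- and *Ocn*+/- pups, 3 of the 9 estimates were negative and 6 positive, though that of *Foxp2* turned negative with upper quartile scaling and those of 6 of the 9 genes turned when single libraries were left out. The largest was that of *Tbr1*, 0.18 (95% interval -0.05 to 0.42), and the adjusted p was 0.999 for each of the 9 genes. Over the 9 genes the intervals ran from a fold of 0.760 to 1.33. A change of *Tle4* outside 0.936 to 1.21 or of *Bcl11b* outside 0.886 to 1.20 lay beyond the 95% interval.

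The libraries differed in how the genes moved together. *Ocn*-/- 2 was the lowest of the 9 for *Cux1*, *Cux2*, *Fezf2* and *Rorb*, *Ocn*+/- 1 for *Bcl11b* and *Tbr1* and *Ocn*+/- 3 for *Tle4* and *Sox5*, whereas WT 3 was the highest for *Cux1*, *Bcl11b*, *Tbr1* and *Foxp2*. The summed CPM of the 6 deep-layer genes was 4.10, 3.80 and 4.17 times that of *Cux1* and *Cux2* in WT, 3.27, 4.37 and 3.40 times in *Ocn*+/- and 4.11, 4.48 and 3.61 times in *Ocn*-/-. The 3 genotypes overlapped in this ratio, and the lowest and the highest came from *Ocn*+/- 1 and *Ocn*-/- 2. Of the 36 pairs of genes, 13 had a Pearson r over 0.5 and 3 under 0 across the 9 forebrain libraries, which share genotype differences and the distinct library WT 3. Without WT 3, 11 pairs were over 0.5 and 8 under 0. *Bcl11b* and *Tbr1* were most alike (r = 0.860, 0.730 without WT 3), followed by *Cux1* and *Cux2* (0.774, 0.852 without WT 3), and *Foxp2* and *Rorb* were most opposed (-0.495, -0.663 without WT 3). *Cux1* and *Bcl11b* went from 0.505 to -0.0574 without WT 3.

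**Figure D4:**
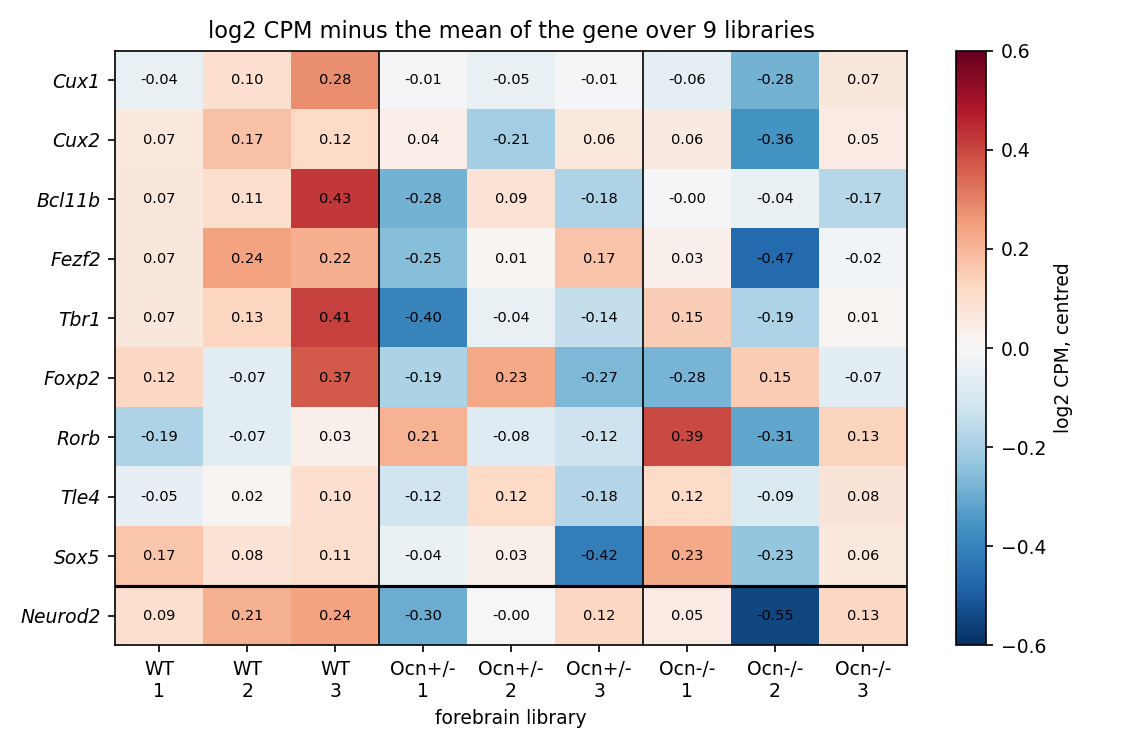
Log2 CPM of each gene minus its mean over the 9 forebrain libraries, in the order WT, *Ocn*+/- and *Ocn*-/-, with *Neurod2* below the line. *Ocn*-/- 2 is low for *Cux1*, *Cux2*, *Fezf2* and *Rorb* together with *Neurod2*, and WT 3 is high for *Cux1*, *Bcl11b*, *Tbr1* and *Foxp2*. *Neurod2* is the gene most like *Fezf2* over these same libraries (r = 0.971), so its low value there follows from that likeness.

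Among 11917 tested genes with a mean of at least 5 CPM, those whose pattern over the 9 libraries was most like that of each factor were named by the highest r, as a description. For *Rorb* these included *Tiam2* (0.950) and *Slain2* (0.889), and for *Fezf2* *Neurod2* (0.971), *Ptk2* (0.968) and *Pim1* (0.957). For *Bcl11b* they were *Ube2d1* (0.985), *Robo1* (0.972) and *Ackr3* (0.964), and for *Tbr1* *Zfp101* (0.971), *Med13l* (0.967) and *Ginm1* (0.956). *Neurod2* is expressed in postmitotic glutamatergic neurons of the pallium. For *Cux1* they were *Gm55678* (0.958), *Lhx2* (0.951) and *Rad9b* (0.947), and for *Cux2* *Utp14a* (0.934), *Pim3* (0.924) and *Rhbdf1* (0.919). For *Foxp2* they were *Ppp3ca* (0.968), *Ube2v2* (0.925) and *Prkacb* (0.924), for *Tle4* *Elovl2* (0.904), *Cbfa2t2* (0.891) and *Nrg3* (0.870), and for *Sox5* *Zfp870* (0.929), *Epha4* (0.926) and *Peli1* (0.924).

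Further genes of the same neurons were read from lists. With both mutant genotypes set against WT, 0 of 10 further genes of upper layer and callosal neurons were called (median log2 fold change -0.07), 0 of 10 of subcerebral layer 5 neurons (0.01) and 0 of 10 of layer 6 and subplate neurons (0.04), beside a median of 0.01 and the 8.68% called (5.39% lower, 3.29% higher) over all genes tested. Without WT 3 these medians were -0.07, 0.01 and -0.01. Of 11 genes tested of pallial progenitors and young glutamatergic neurons, 1 was called (median -0.07, -0.01 without WT 3), *Slc17a7*, the vesicular glutamate transporter of cortical neurons, which rose from 85.7 ± 15.3 CPM (SD, n = 3) in WT to 123 ± 14.3 (SD, n = 6) in the mutant libraries (log2 fold change 0.52, adjusted p = 0.0119, 0.0650 without WT 3). Of 10 genes of Cajal-Retzius cells of layer 1, 1 fell and 1 rose (median -0.16, -0.07 without WT 3). *Reln*, the secreted guide of neuronal migration, fell from 563 ± 49.2 to 465 ± 30.6 CPM (-0.28, adjusted p = 0.0161, 0.123 without WT 3), and *Calb2*, which is also on the thalamic list and is not particular to these cells, rose from 18.3 ± 0.904 to 32.6 ± 9.97 CPM (0.80, adjusted p = 0.0167, 0.115 without WT 3). By genotype *Calb2* was at 1.10 (adjusted p = 0.0101) in *Ocn*+/- and 0.50 (adjusted p = 0.176) in *Ocn*-/-, and *Ocn*-/- 1, at 16.9 CPM, lay below the WT libraries.

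Of 12 tested close paralogs of the 9 genes, 1 was called (median -0.16), against 8.68% of all genes tested. *Foxp1*, a forkhead gene of cortex and striatum, fell from 319 ± 19.8 to 253 ± 29.8 CPM (-0.33, adjusted p = 0.0255, 0.146 without WT 3). *Bcl11a*, the paralog of *Bcl11b*, was at 393 ± 42.6 in WT and 336 ± 17.2 CPM in the mutant libraries (-0.23, adjusted p = 0.0550, 0.341 without WT 3). Of 15 partners of the layer factors, such as *Ski*, the NuRD subunits and the nuclear factor I genes, 1 was called (median -0.04), again against 8.68%. It was *Sox4*, a SoxC factor of newborn neurons. *Sox4* was at 976, 1140 and 1457 CPM in WT, 622, 812 and 708 CPM in *Ocn*+/- and 749, 604 and 740 CPM in *Ocn*-/-, with no overlap between WT and mutant libraries. Of all genes tested, 8.57% were likewise lower in the mutants without overlap. *Sox4* fell by 0.75 on the log2 scale in both (SE 0.12, adjusted p = 0.00561) and was also called without WT 3 (adjusted p = 0.0119), in *Ocn*+/- (-0.74, adjusted p = 0.0231) and in *Ocn*-/- (-0.77, adjusted p = 0.0171). Its close relative *Sox11* was at 625, 679 and 1080 CPM in WT, between 488 and 543 CPM in *Ocn*+/- and between 469 and 643 CPM in *Ocn*-/- (-0.59, adjusted p = 0.107, 0.132 without WT 3), and *Bcl11a* and *Sox11* are named here after their values were seen.

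Summed markers of some other regions and cell types differed between groups, and those of others overlapped. The summed CPM of 10 genes of olfactory bulb neurons was 116 to 125 in WT, 216 to 250 in *Ocn*+/- and 111 to 217 in *Ocn*-/-, with *Ocn*-/- 1 at the WT level, and that of 12 genes of striatal projection neurons was 237 to 261 in WT, 237 to 329 in *Ocn*+/- and 318 to 358 in *Ocn*-/-, where the WT and *Ocn*+/- libraries overlapped and those of WT and *Ocn*-/- did not. That of 12 genes of glia and vessels was 1009 to 1134 in WT, 1233 to 1257 in *Ocn*+/- and 1095 to 1350 in *Ocn*-/-, so that WT did not overlap *Ocn*+/-. The sums of hippocampal neurons overlapped, at 341 to 417, 292 to 373 and 329 to 476 CPM, as did those of interneurons, at 836 to 960, 777 to 940 and 734 to 906 CPM. The thalamic sum was 194 to 227 CPM in WT, 244 to 263 in *Ocn*+/- and 175 to 224 in *Ocn*-/-. That of Cajal-Retzius cells was 672 to 821 CPM in WT, above the 647 to 669 of *Ocn*+/- and the 563 to 638 of *Ocn*-/-. Most of that sum was *Reln* alone, at 516 to 615 CPM in WT, 459 to 512 in *Ocn*+/- and 424 to 467 in *Ocn*-/-. The separation can therefore not be credited to the list as a whole. The summed CPM of the paralogs was 1224 to 1388 in WT, above the 1077 to 1222 of *Ocn*+/- and the 1068 to 1215 of *Ocn*-/-. The part of these sums in the values of the layer factors was not tested. By gene, 3 of 12 striatal genes rose (median 0.21), against 3.29% of all genes tested. They were *Drd1* (0.76, adjusted p = 0.00318, 0.0341 without WT 3), *Adora2a* (0.49, adjusted p = 0.0231, 0.139 without WT 3) and *Gpr6* (1.63, adjusted p = 0.00812, 0.0580 without WT 3). *Bcl11b* and *Foxp2* are also striatal genes, and the part of striatal cells in their values was not tested.

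Of the olfactory list 1 of 10 rose (median 0.84, 1.14 without WT 3), *Nmb* (1.51, adjusted p = 0.0150, 0.0728 without WT 3, where *Sp8* was called instead at 0.0254), and *Cdhr1*, a gene of mitral cells named after its values were seen, was at 4.80 to 12.6 CPM in WT, 71.0 to 92.1 CPM in *Ocn*+/- and 8.15, 51.8 and 54.0 CPM in *Ocn*-/- (adjusted p = 0.0795, 0.251 without WT 3). Of 12 genes of glia and vessels 4 rose and 1 fell (median 0.10). The shares over all genes tested, 3.29% higher and 5.39% lower, apply to each list of this paragraph. *Cx3cr1*, a microglial receptor, rose by 0.88 (adjusted p = 0.00217, 0.0123 without WT 3), *Gfap*, an astrocyte filament, by 0.70 (adjusted p = 0.00773, 0.0359 without WT 3), and *Olig1*, of the oligodendrocyte lineage, by 0.40 (adjusted p = 0.0142, 0.0992 without WT 3), while the endothelial gene *Pecam1* was at -0.57 (adjusted p = 0.0173, 0.125 without WT 3). The other riser was *Fabp7*, a gene of radial glia (0.31, adjusted p = 0.0231, 0.137 without WT 3). The remaining 7 genes were not called, with log2 fold changes of -0.35 for microglial *C1qa*, 0.17 and -0.08 for astrocytic *Slc1a3* and *Aldoc*, -0.03 and 0.02 for *Olig2* and *Pdgfra* of the oligodendrocyte lineage, 0.27 for endothelial *Cldn5* and -0.12 for *Pdgfrb* of pericytes. *Fabp7* and these 7 were named after their values were seen, so that the whole list is given. Of 10 thalamic genes 1 rose, *Calb2* (median 0.13, 0.30 without WT 3), of 9 hippocampal genes tested 0 were called (median 0.01, 0.10 without WT 3) and of 12 interneuron genes 0 (median -0.07, 0.04 without WT 3). The 1 gene tested of cerebellum, midbrain and hindbrain was not called (-0.38, -0.07 without WT 3). Of 10 genes of neurons in general 1 rose (median 0.01, 0.07 without WT 3), *Syt1* (0.21, adjusted p = 0.0418, 0.163 without WT 3), and the summed level of that list was 7051 to 7422 CPM in WT, 6914 to 7238 CPM in *Ocn*+/- and 6920 to 7205 CPM in *Ocn*-/-.

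**Figure D5:**
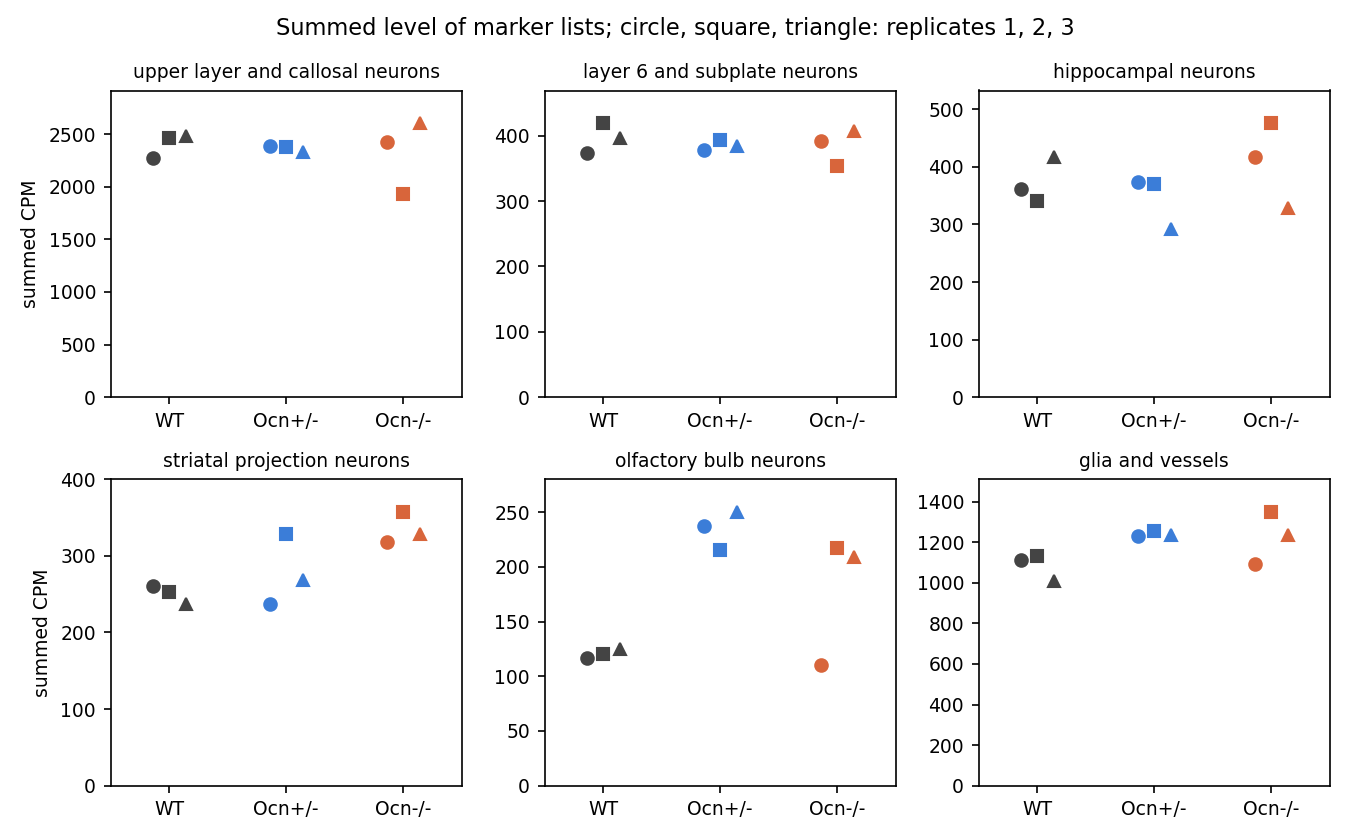
Summed CPM of 6 marker lists in the 9 forebrain libraries by genotype, with the replicates as circle, square and triangle. The olfactory bulb list lies at 116 to 125 CPM in WT and at 216 to 250 CPM in *Ocn*+/-, and the list of upper layer and callosal neurons lies between 1928 and 2602 CPM with its lowest value in *Ocn*-/- 2.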

How the data were processed

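RNA of forebrain and testes was sequenced, and 9 forebrain libraries were used here. Per the labels, the authors trimmed reads with Trim Galore 0.6.6, aligned them to GRCm39 with STAR 2.7.8a and counted them with RSEM 1.3.3. They deposited expected counts per gene, not normalized; the GENCODE release and strandedness are not given in the sources used here, so reads of antisense neighbours could not be told apart. Of 55359 identifiers, 54749 were found in the GENCODE annotation of GRCm39. Counts were rounded, filtered with filterByExpr, scaled by TMM and tested with edgeR 4.0.16 in R 4.3.3 by robust quasi-likelihood, two-sided, with the 3 genotypes in 1 fit without covariates and Benjamini-Hochberg adjustment. Levels are CPM (log2 CPM with a prior count of 2). Libraries were grouped by label, and no 2 forebrain libraries of a genotype were duplicates (differences of at least 3.55 times counting noise). In simulated data of both mutant genotypes against WT (15842 genes), 85 of 100 changes of 1.5-fold and 19 of 100 of 1.25-fold were recovered. The simulation gave every gene the same spread and held no outlying library such as WT 3, so it does not measure the power of the comparisons with WT. DESeq2 1.42.0, other scalings, filters, the replicate block and leaving out each library were alternatives. The genes and the 15 marker lists were chosen with earlier results of these data known. Of each list up to 4 called genes are named, taken by size of change, and for each factor the 3 genes most like it by r, of which 1 is not reported here.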

Additional observations from a re-analysis of the deposited data

Results flagged for a closer look

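The testes of the same genotypes, which enter no comparison above, also held reads of these genes above 3 counts in each of the 8 libraries for 6 of the 9 genes. The median level was 125 CPM for *Cux1*, 73.0 CPM for *Tle4*, 17.0 CPM for *Sox5*, 10.1 CPM for *Bcl11b*, 6.49 CPM for *Cux2* and 3.88 CPM for *Foxp2*. *Bcl11b* was at 8.81 and 7.44 CPM in the WT testes, 11.6, 9.34 and 9.21 CPM in *Ocn*+/- and 12.8, 12.4 and 10.9 CPM in *Ocn*-/-, and *Foxp2* was at 5.31 and 5.05 CPM in WT, 1.20, 4.04 and 3.71 CPM in *Ocn*+/- and 2.13, 4.20 and 1.14 CPM in *Ocn*-/-. The difference between genotypes was not tested in testes. *Tbr1*, *Rorb* and *Fezf2* had 1 to 6, 2 to 8 and 0 to 2 counts per testes library. With 2 or 3 libraries a group, no gene was screened for single outlying libraries.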

How the results depend on the processing

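Of the 36 log2 fold changes of the 9 genes, the direction was lost in 4 values under other settings than leaving out a library. With library size alone *Sox5* was at 0.0129 in *Ocn*-/- against WT and *Tle4* at 0.0641 in both and 0.00765 in *Ocn*+/-, and with upper quartile scaling *Foxp2* was at -0.0047 in *Ocn*-/- against *Ocn*+/-. Leaving out each library in turn gave ranges of -0.0309 to 0.161 for *Bcl11b*, -0.144 to 0.0303 for *Cux1*, -0.125 to 0.0811 for *Cux2*, -0.230 to 0.0208 for *Fezf2*, -0.109 to 0.176 for *Foxp2* and -0.0847 to 0.259 for *Rorb* in *Ocn*-/- against *Ocn*+/-, of -0.0191 to 0.154 for *Rorb* in *Ocn*+/- against WT, of -0.197 to 0.0282 for *Sox5* and -0.0256 to 0.0737 for *Tle4* in *Ocn*-/- against WT, and of -0.0777 to 0.00982 for *Tle4* in both. The number of the 9 genes called in both was 0 with library size alone and with the replicate block, 2 with DESeq2, the likelihood ratio test and no filter, and 0 to 2 when a library was left out; in *Ocn*+/- it was 1 with DESeq2, the likelihood ratio test, a minimum of 10 counts and the 2 genotypes alone, 2 without a filter and 0 to 1 when a library was left out; in *Ocn*-/- it was 1 without a filter. The genes called over all were 369, 944 and 1265 in *Ocn*+/- with library size alone, the likelihood ratio test and no filter (625 as reported, 183 to 830 leaving out a library), 1502 in *Ocn*-/- without a filter (780, 189 to 919), 1639 with DESeq2, 1715 with the likelihood ratio test and 2086 without a filter in both (1395, 320 to 1527 leaving out a library) and, in *Ocn*-/- against *Ocn*+/- (1), 2 with library size alone, 5 with DESeq2 and the likelihood ratio test, 34 without a filter, 0 with a minimum of 10 counts or the 2 genotypes alone, and 1 to 2 leaving out a library. The libraries that moved these counts by over 1.5 times were WT 3 (183, 189 and 320 in *Ocn*+/-, *Ocn*-/- and both), WT 2 (373, 363 and 779), each *Ocn*+/- library in *Ocn*+/- (298, 312 and 273), and *Ocn*-/- 1 and 2 in *Ocn*-/- (478 and 278); without *Ocn*+/- 2 or *Ocn*-/- 2 the count in *Ocn*-/- against *Ocn*+/- was 2. With library size alone 64.6% of the calls in both were higher, against 37.9% (47.7 against 31.0% in *Ocn*+/-, 64.5 against 37.2% in *Ocn*-/-). The replicate numbers of the labels did not pair the libraries (correlations of same-numbered deviations -0.0366 to 0.146), and with them as a block *Bcl11b* was at -0.30 (adjusted p = 0.0512) in both and the calls over all numbered 768, 1140, 1 and 1618. Depth of WT 3, the lowest, leaves 208 counts behind *Rorb*. The cause of these differences was not tested.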
